A study of Homo sapiens with 22 samples.

Results

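H3R2me2a, the asymmetric dimethylation of arginine 2 of histone H3, was mapped by chromatin immunoprecipitation and sequencing (ChIP-seq), and the regions nearest to genes of arginine methyltransferases are described here, among them the gene of PRMT6, the enzyme that places this mark. A region was included when the authors' promoter or enhancer list gave PRMT6, PRMT8, PRMT1, PRMT2 or CARM1 as the gene of the nearest transcript. This gave 9 of 8819 regions, of which PRMT8 had 4, PRMT6 had 2, and PRMT1, PRMT2 and CARM1 had 1 each. No tag value entered the choice, but a gene could enter only if a called region was named for it.

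The cells were NT2/D1, a pluripotent human embryonal carcinoma line that can be driven to differentiate with all-trans retinoic acid (ATRA). The region lists came from CRISPR/Cas9 control cells immunoprecipitated with a rat monoclonal antibody made in the submitters' laboratory, in 1 library without ATRA and 1 library given 1 µM ATRA for 3 days. Both libraries were labelled as controls, and the libraries of cells with a CRISPR/Cas9-mediated deletion of PRMT6, like the rest of the 20 other samples of the series, were not analysed here. The labels do not say whether the control cells were a clone or a pool. Of 8 genes that mark pluripotent cells, 5 (against 20.9% of all protein-coding gene names) were nearest to a region (POU5F1, SOX2, LIN28A, LIN28B and SALL4) and NANOG, DPPA4 and DNMT3B were not. Of 4 markers of other cells, GATA4 and CD4 were named and SOX17 and TBXT (looked for under this symbol) were not, and a list of regions is no measure of expression.

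The lists divided the regions in 2 ways. By cluster, 202 regions were in cluster I and 2098 in cluster II, both deposited under the library without ATRA, and 6519 were in cluster III, deposited under the library with ATRA. By class, 4236 were in the promoter list and 4583 in the enhancer list. A column of MACS tags (the reads that the peak caller counted in a region) was used for cluster III, and a column named tagcount was present for every region. No source used here says in which library tagcount was read. In cluster I tagcount exceeded the MACS tags by 0 to 8 (median 3). Its lowest value was 35 in cluster I, 35 in cluster II and 0 in cluster III. Depth of sequencing is unknown, and with 1 library per condition no value has a replicate error and no test was made.

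Protein arginine methyltransferases move methyl groups from S-adenosylmethionine onto arginines. Type I enzymes, which include PRMT6, PRMT8, PRMT1, PRMT2 and CARM1, leave both groups on the same nitrogen, while PRMT5 and PRMT9 make the symmetric form. PRMT6 is mainly nuclear and its mark on histone H3 hinders methylation of the neighbouring lysine 4 by KMT2 complexes. PRMT1 carries out most asymmetric arginine methylation in many cells, CARM1 is a transcriptional coactivator that methylates other arginines of histone H3, and PRMT8 is a membrane-anchored relative of PRMT1 found mainly in brain.

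A few promoters are shown because the named starts of these genes differ in sequence as well as in how close a region lay. Each sequence is taken from RefSeq (GRCh38.p14), on the + strand, from the 250 bases before the start, without bases that GENCODE 44 places in an exon. CG dinucleotides, the sites of DNA methylation, are in capitals. The window of PRMT6 (chromosome 1, 107056424 to 107056673) stands for a start with a region 15 bp away by the authors' distance, and that of PRMT2 (chromosome 21, 46635424 to 46635594) for a start with a region at 9 bp. The first PRMT8 window (chromosome 12, 3381099 to 3381348) is at a start whose nearest PRMT8 region was 9070 bp away, and the second (3490953 to 3491163) is at a start near the strongest promoter-list region of that gene.
PRMT6: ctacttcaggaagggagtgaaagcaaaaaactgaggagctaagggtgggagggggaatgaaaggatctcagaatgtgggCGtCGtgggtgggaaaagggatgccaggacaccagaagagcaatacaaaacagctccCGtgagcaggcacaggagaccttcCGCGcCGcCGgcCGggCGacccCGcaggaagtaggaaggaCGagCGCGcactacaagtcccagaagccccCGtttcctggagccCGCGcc
PRMT2: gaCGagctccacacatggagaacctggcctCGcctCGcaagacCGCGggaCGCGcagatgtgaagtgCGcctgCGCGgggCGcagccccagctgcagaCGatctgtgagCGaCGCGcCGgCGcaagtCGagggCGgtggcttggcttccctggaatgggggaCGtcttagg
PRMT8, first start: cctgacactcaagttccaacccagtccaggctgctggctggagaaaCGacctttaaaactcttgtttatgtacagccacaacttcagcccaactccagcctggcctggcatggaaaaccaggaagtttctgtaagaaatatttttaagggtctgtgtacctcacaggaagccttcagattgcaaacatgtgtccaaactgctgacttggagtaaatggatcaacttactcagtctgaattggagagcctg
PRMT8, second start: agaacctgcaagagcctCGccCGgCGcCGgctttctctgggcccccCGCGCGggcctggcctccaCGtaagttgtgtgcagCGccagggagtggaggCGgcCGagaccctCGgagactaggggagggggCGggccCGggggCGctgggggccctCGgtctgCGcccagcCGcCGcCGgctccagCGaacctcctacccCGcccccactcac

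All 5 genes were found in the RefSeq table, with 7 starts among 35114 usable windows of 250 bases. The PRMT6 window held 16 CG dinucleotides in its 250 bases (percentile 60.05 of all windows, whose median was 11). The PRMT2 window held 32 (percentile 91.2), and the first window of CARM1, the richest of the 7, held 45 (percentile 99.5). That CARM1 window is not printed above, and no region named for CARM1 lay within 1 kb of a start. PRMT8 had a contrast between its starts, which lie 109854 bp apart. The first held 1 CG (percentile 10.4) and the second 26 (percentile 81.4). All counts are over the full 250 bases, also where fewer are shown. PRMT1 held 17 (percentile 62.1). As a reference, the median was 21 over 2474 windows of genes named in the promoter list for a cluster III region and 19 over 1420 windows for cluster II.

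Motifs were searched on both strands of the 7 full windows. GGGCGG, the core of the Sp1 motif, was in 5 windows and in 42.6% of all windows, and it was not found in the windows of PRMT6 and of the first PRMT8 start. CCAAT, the NF-Y motif, was in 2 (PRMT1 and the first PRMT8 start), against 32.01% of all windows. AGGTCA, the half-site that retinoic acid receptors and other nuclear receptors can bind, was in 1 window, that of PRMT1, against 12.1% of all. TATAAA (10.7% of all) and CACGTG (6.35%) were in none of the 7. In the 7 windows there were 0 overlaps between matches of different motifs. A match is only a match of letters.

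PRMT6 carried 2 neighbouring H3R2me2a regions at its only named start, 1 of the promoter list and 1 of the enhancer list, both in cluster III. The named transcript, ENST00000370078, is a protein-coding transcript of 1 exon and 2621 bases in GENCODE 44, with coding sequence from base 43. The promoter-list region (hg19 chromosome 1, 107599041 to 107599500, 460 bp) lay 15 bp upstream of that start by the authors' distance. It had a tagcount of 24 and 51 MACS tags. The enhancer-list region (chromosome 1, 107599619 to 107600119, 501 bp) lay 510 bp past the start by the same measure. It had a tagcount of 9 and 40 MACS tags. Only 118 bp separated them, and the authors placed both in the start window. The pair lay side by side at the beginning of the gene whose product writes the mark.

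The region at the PRMT6 start was of middling strength and the region behind it was weak by tagcount. By MACS tags the first was at percentile 51.9 of cluster III, whose median was 50, and the second at 27.7. Within the promoter list the tagcount of the first was at percentile 20.2 (median 40), and within the enhancer list that of the second was at 11.3 (median 24). Both lists also hold cluster II regions, whose tagcount was never below 35. Among cluster III start-window regions of the promoter list, the first was at percentile 31.9 by tagcount and 48.5 by MACS tags. Among the 519 cluster III regions of the enhancer list that lay in a start window, the second was at percentile 8.86, against a median tagcount of 22. Per kb of region, tagcount was 52.2 (exact Poisson 95% interval 33.4 to 77.6) in the first and 18.0 (8.21 to 34.1) in the second, intervals that overlap slightly. Such intervals cover counting error only.

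Few named transcripts had start-window regions of both lists. The count is per transcript, so regions of both lists at different named starts of the same gene, as at HNRNPA1, do not enter it. Of 4596 transcripts with a region in the start window, 104 had at least 2 such regions, and 7 (0.152%) had regions of both lists, a count looked at after the PRMT6 values were seen. The other transcripts were named for ACTB, FGF3, MIR205HG, RP11-10N16.3, SNHG1 and U1. In all 7 the promoter-list region was the nearer to the start. Both regions were in cluster III at PRMT6, FGF3 and ACTB. The FGF3 regions had a tagcount of 30 and 70 MACS tags in the promoter list and a tagcount of 10 and 64 MACS tags in the enhancer list. The ratio of tagcount to MACS tags was lower in the enhancer-list region at FGF3 (0.156 against 0.429) and PRMT6 (0.225 against 0.471), and at ACTB the values were 0.636 and 0.62.

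PRMT6 also stood alone in its part of chromosome 1. No region of another name lay within 100 kb. The nearest on the left was an enhancer-list region of RP5-947P14.2, at a gap of 830.6 kb (tagcount 5, 48 MACS tags), and the nearest on the right was the promoter-list region of PRPF38B, a splicing factor gene, at 1635 kb (tagcount 35, 39 MACS tags). A gap of 830.6 kb to a region of another name was at percentile 96.5 of all regions, whose median gap was 67.9 kb.

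**Figure D1:**
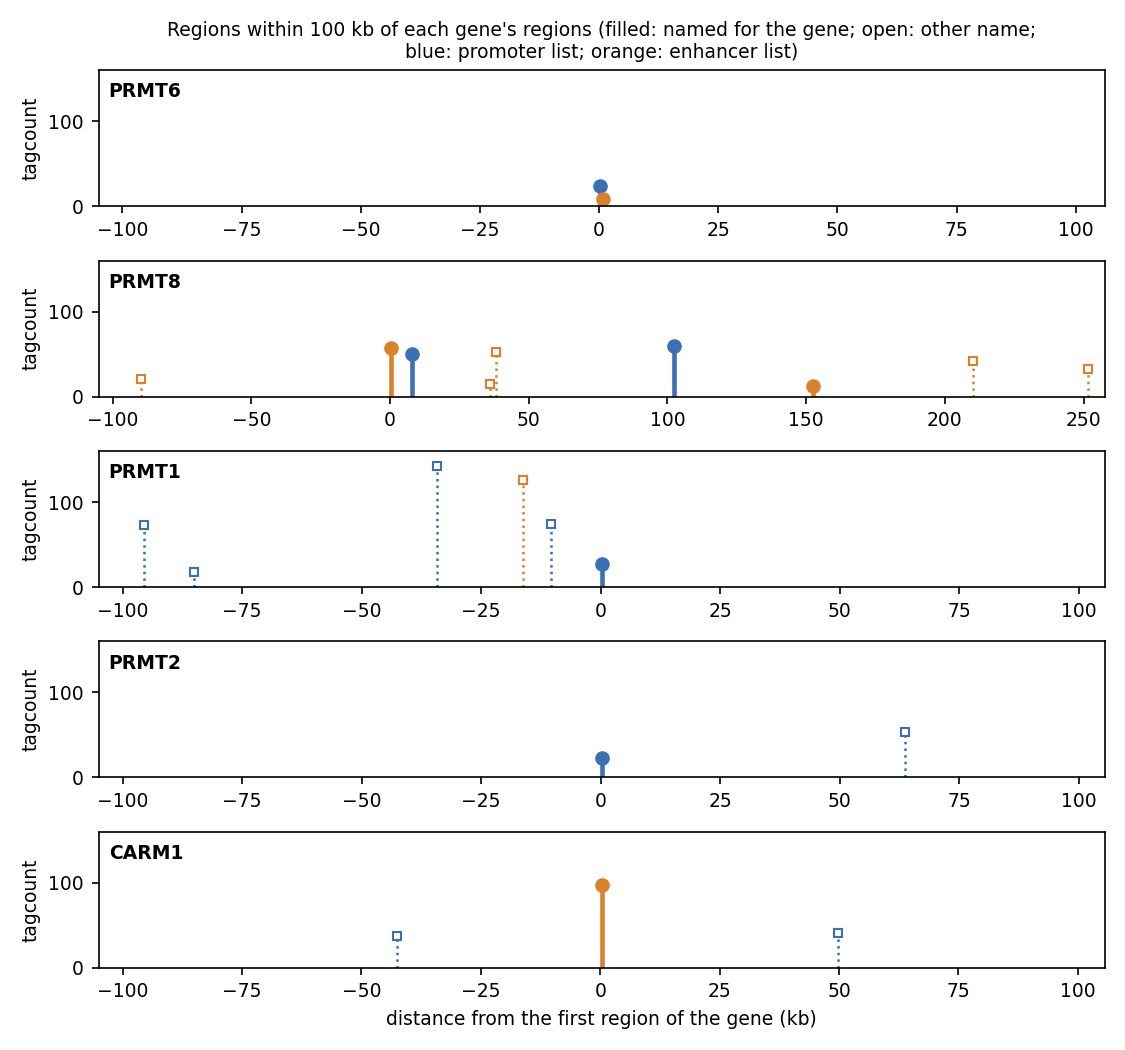
Regions within 100 kb of the regions of each gene, placed by distance in kb from the first region of that gene (x axis) with their tagcount (y axis). Filled circles are regions named for the gene, open squares carry another name, blue is the promoter list and orange the enhancer list. PRMT6 has no neighbour in the window, PRMT8 has 4 regions of its own among 5 others, and the PRMT1 region is lower than 4 of the 5 regions on its left.

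PRMT8 had the most regions, and they were spread over 153 kb of chromosome 12 and over 3 named starts. All were in cluster III, 2 in the promoter list and 2 in the enhancer list. Region 1, an intronic enhancer-list region (3499193 to 3500223, 1031 bp), lay 9070 bp past the start of ENST00000452611, the protein-coding transcript that begins at the CG-poor window above, and had a tagcount of 57 and 114 MACS tags. Region 2, also intronic but of the promoter list (3506956 to 3507623, 668 bp), lay 16819 bp past the same start and had a tagcount of 50 and 53 MACS tags. Region 3, of the promoter list (3600824 to 3601983, 1160 bp), lay in the start window 1218 bp past ENST00000543701, a retained-intron transcript that begins 56 bp after the RefSeq start of the CG-rich window, and had a tagcount of 60 and 100 MACS tags. Region 4, an intronic enhancer-list region (3651383 to 3651826, 444 bp), lay 4325 bp past the start of ENST00000261252, a transcript without a defined coding sequence, and had a tagcount of 12 and 37 MACS tags.

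The 4 PRMT8 regions fell into 2 broad strong ones and 2 narrower ones. Regions 1 and 3 were at percentiles 93.2 and 89.9 of cluster III by MACS tags and at 95.3 and 97.2 by width. Region 2 was near the middle by MACS tags (54.9) and region 4 was low (18.5). Per kb of region the order of MACS tags was closer, with 110.6 in region 1, 86.2 in region 3, 83.3 in region 4 and 79.3 in region 2, so the high total of region 3 went with its width. A promoter-list region in an intron, as PRMT8 region 2 was, is uncommon: 73 of 4236 promoter-list regions (1.72%) had that position.

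A count of 4 regions was reached by 2.82% of the 6697 gene names in the lists, and by more on the chromosome arm that carries PRMT8. The short arm of chromosome 12, taken as the part before 36 Mb, held 640 regions, or 18.7 per Mb, against 4.10 per Mb on the long arm. Of 303 gene names with a region on that arm, 43 (14.2%) had at least 4 there, against 143 of 6394 other names (2.24%). Cluster III regions of the arm also had more MACS tags than the cluster as a whole, with medians of 68 and 50. Among these 563 regions the 4 PRMT8 regions were at percentiles 77.5, 33.1, 72.7 and 7.73 by MACS tags. The part of the arm's density in the PRMT8 count was not tested.

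A pair of enhancer-list regions lay between PRMT8 regions 2 and 3 under another name, RP11-476M19.3, a non-coding gene whose start was 37438 and 35455 bp away. The stronger (3536826 to 3537652) had a tagcount of 52 and 146 MACS tags, more than any region named PRMT8, and the weaker (3535194 to 3535567) a tagcount of 15 and 37 MACS tags. Counted by position the PRMT8 stretch thus held 6 regions, all of cluster III. Outside it the nearest regions were named for RP5-1063M23.1, 89.4 kb before, and EFCAB4B, 57.1 kb after.

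PRMT1 and PRMT2 each had 1 promoter-list region in a start window, both of cluster III and below its median in MACS tags. The PRMT1 region (chromosome 19, 50179473 to 50179909, 437 bp) lay 302 bp past the start of ENST00000528623 and had a tagcount of 27 and 31 MACS tags. That transcript begins 1030 bp before the RefSeq start of PRMT1, so the authors assigned the region to an upstream start. With 31 MACS tags it was at percentile 1.61 of cluster III, whose lowest value was 26, while its tagcount was at percentile 56.3 of the cluster and 26.02 of the promoter list. The PRMT2 region (chromosome 21, 48054949 to 48055426, 478 bp) lay 9 bp past the start of ENST00000355680, which is also the RefSeq start, and had a tagcount of 23 and 38 MACS tags, at percentiles 46.2 and 21.6 of cluster III.

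The surroundings of these regions differed. The PRMT1 region was 9833 bp from a cluster III promoter-list region at a start of IRF3, an interferon response factor gene, which had a tagcount of 74 and 121 MACS tags. On the other side the nearest was the promoter-list region of FUZ, 136.6 kb away (tagcount 33, 36 MACS tags). Within 100 kb there were 6 regions in all, 3 of cluster II and 3 of cluster III. PRMT2 had 1 other region within 100 kb, named for the pseudogene RPL23AP4 at a gap of 62.7 kb (tagcount 53, 92 MACS tags), and on the other side the promoter-list region of DIP2A lay 176.3 kb away (tagcount 19, 40 MACS tags).

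CARM1 had a cluster II region with the highest tagcount of the 9, in an intron like 3 of the PRMT8 regions. Its region (chromosome 19, 10989681 to 10990298, 618 bp) was the only 1 of the 9 in cluster II, lay in an intron 7409 bp past the start of ENST00000589693, and was in the enhancer list. The named transcript is annotated as subject to nonsense-mediated decay and begins 357 bp after the first RefSeq start of CARM1, the start with 45 CG dinucleotides. No region was named for CARM1 within 1 kb of a start. Its tagcount of 97 was at percentile 96.4 of the enhancer list, 68.2 of cluster II (median 69) and 85.4 of the 195 intronic enhancer-list regions of cluster II (median 56). Each cluster II region carried a second interval, here 10989731 to 10990275, which lay wholly inside the first and covered 88.2% of it. The nearest regions were the promoter-list regions of C19orf38 (cluster III, tagcount 38, 81 MACS tags), 42.3 kb before it, and C19orf52 (cluster II, tagcount 41), 48.97 kb after it. MACS tags are not in the cluster II list used here, so no ratio was formed.

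By tagcount per kb of region the 9 regions ran from 18.0 to 157. CARM1 was first (157, exact Poisson 95% interval 127 to 191), and its interval lay above those of the other 8. The next were PRMT8 region 2 (74.9, 55.6 to 98.7), PRMT1 (61.8, 40.7 to 89.9), PRMT8 region 1 (55.3, 41.9 to 71.6), the first PRMT6 region (52.2), PRMT8 region 3 (51.7, 39.5 to 66.6) and PRMT2 (48.1, 30.5 to 72.2), and the intervals of these 6 overlapped. PRMT8 region 4 (27.03, 13.97 to 47.2) and the second PRMT6 region (18.0) were last, overlapped each other, and in part overlapped the 6 before them. Cluster II, which held the CARM1 region, had a median tagcount of 69, against 24 in cluster III. No cluster II region had a tagcount below 35, while cluster III went down to 0. CARM1 was thus compared with regions of a cluster without that lower limit, and the part of the cluster in this order was not tested.

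**Figure D2:**
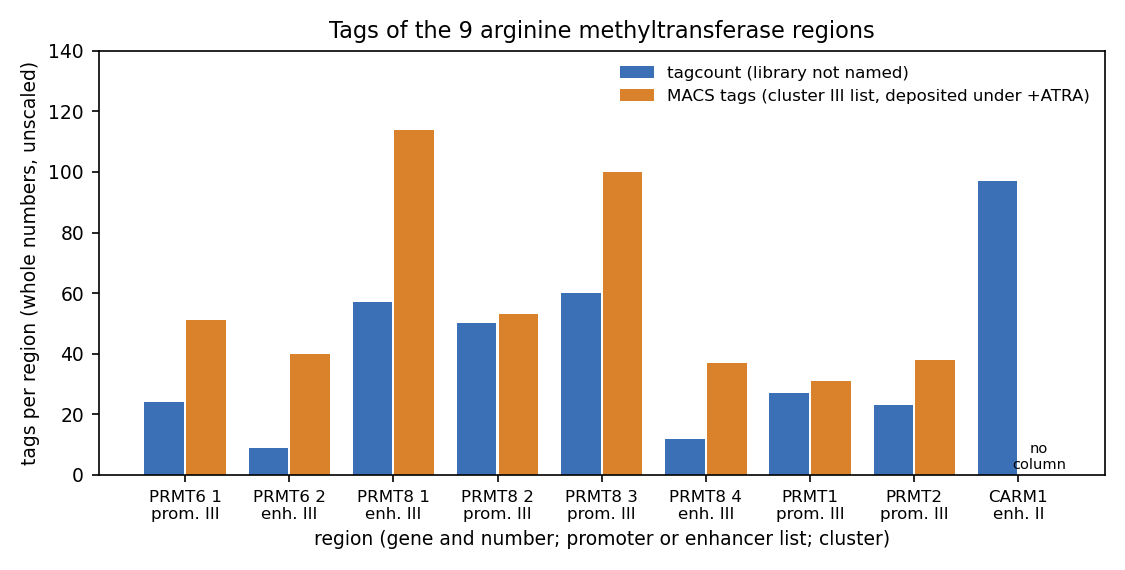
Tagcount (blue) and MACS tags (orange) of the 9 regions, in unscaled whole numbers of tags (y axis), by gene, region number, list and cluster (x axis). MACS tags exceed tagcount in all 8 cluster III regions, from 53 against 50 at PRMT8 region 2 to 114 against 57 at PRMT8 region 1. Most of the 6519 regions of cluster III share this, since tagcount divided by MACS tags has an upper quartile of 0.632 there.

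The ratio of tagcount to MACS tags in the same region ranged widely over the 8 cluster III regions, from 0.225 to 0.943, with a median of 0.55 against 0.486 in all 6519 (quartiles 0.315 and 0.632). MACS tags were at least 2 times tagcount in 4 of the 8, against 53.5% of all cluster III regions, which is near the background. The second PRMT6 region had the lowest ratio, 0.225 (95% interval 0.0960 to 0.471, from the exact binomial interval of the tags of both columns), at percentile 14.4 of the cluster. The first PRMT6 region had 0.471 (0.277 to 0.779), at percentile 47.4. PRMT8 region 2 had the highest, 0.943 (0.628 to 1.42), at percentile 97.5, and PRMT1 had 0.871 (0.5 to 1.51), at 95.5. PRMT2 (0.605, 0.344 to 1.04) and PRMT8 regions 3 (0.6), 1 (0.5) and 4 (0.324) lay between. For PRMT8 region 2, PRMT1 and PRMT2 the intervals held 1, a value that does not mean equal signal because the columns are unscaled. The intervals of PRMT8 region 2 and PRMT1 lay above the cluster median of 0.486, and that of the second PRMT6 region below it. The other intervals held that median. MACS tags are the divisor of the ratio, and PRMT1 had only 31 of them, near the lowest value of 26 in cluster III. The part of this in its high ratio was not tested.

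These ratios are unscaled, and the libraries' depths are unknown, so they place regions beside each other and do not measure a change with ATRA. Within PRMT6 the intervals of the 2 ratios overlapped. Within PRMT8 those of regions 2 and 4 met only between 0.628 and 0.636. Among the 563 cluster III regions of the short arm of chromosome 12, where the median ratio was 0.663, PRMT8 region 2 was at percentile 91.03 and region 4 at 3.82.

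**Figure D3:**
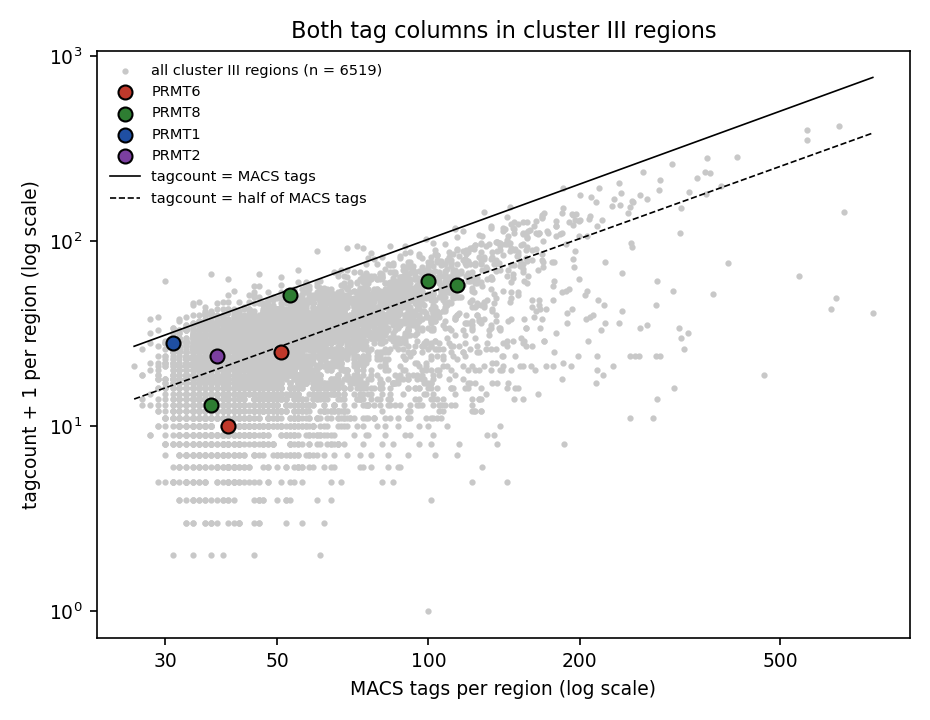
MACS tags (x axis, log scale) and tagcount + 1 (y axis, log scale) of all 6519 cluster III regions (grey) and of the 8 regions of PRMT6, PRMT8, PRMT1 and PRMT2 (coloured). The solid line marks equal columns and the dashed line a ratio of 0.5. The 8 regions lie within the grey cloud, with the second PRMT6 region lowest at a tagcount of 9 and PRMT8 region 2 and PRMT1 close to the solid line.

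As a group the 9 regions divided much as all regions did. In cluster III were 8 of 9 (88.9%, exact Clopper-Pearson 95% interval 51.8 to 99.7), against 73.9% of all 8819. In the promoter list were 5 of 9 (55.6%, 21.2 to 86.3), against 48.0%. Within 1 kb of a start were 4 of 9 (44.4%, 13.7 to 78.8), against 50.5%. Each interval held the share of all regions. The median width was 501 bp (437 to 1160), against 513 bp, and the median tagcount 27, against 32. Regions of the same gene are not independent, so the intervals are too narrow.

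Of 11 arginine methyltransferase genes, the 5 above were named and 6 were not: PRMT3, PRMT5, PRMT7, PRMT9, METTL23 and NDUFAF7. That is 45.5% (16.7 to 76.6), against 20.9% of the 20020 protein-coding gene names of GENCODE 44 (4188). The latter share is too low where the authors used an older name. The family was chosen with earlier results of these data known, and the 5 genes of this report are those of the family with a region. The 45.5% is therefore no independent result. All 5 named genes encode Type I enzymes, but so does PRMT3, which had no region, so the regions did not divide the family by enzyme type. PRMT5 and PRMT9, which make the symmetric form, had no region under their current or older symbols.

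Genes that work with these enzymes were also looked up, in 5 lists of 47 genes. Of these, 21 were nearest to a region, against a share of 20.9% among all protein-coding gene names. Of 6 partner genes 4 were named (66.7%, exact 95% interval 22.3 to 95.7). WDR77, the obligate partner of PRMT5, had a cluster III region 40 bp upstream of its start (tagcount 25, 40 MACS tags), although PRMT5 itself had none. CLNS1A, which brings substrates to PRMT5, had a cluster II region 48 bp upstream (tagcount 68). BTG1, a binding partner of PRMT1, had a cluster III region 181 bp past its start (tagcount 16, 42 MACS tags), and RIOK1, another PRMT5 adaptor, an intergenic enhancer-list region 8022 bp away (tagcount 10, 42 MACS tags). COPRS and BTG2 had none.

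The methyl donor pathway was named at 5 of 9 genes, against 20.9% of all protein-coding names. All 5 had a promoter-list region within 1 kb of a start, and 77.6% of all 4188 named protein-coding genes had a region of either list that close. MAT2A, which makes S-adenosylmethionine, had 3 cluster III regions, the strongest 113 bp upstream of its start (tagcount 38, 83 MACS tags). AHCY, which clears the S-adenosylhomocysteine left by methylation, had a cluster II region (tagcount 68). Its relatives AHCYL1 and AHCYL2 had a cluster III region (tagcount 33, 57 MACS tags) and a cluster II region (tagcount 188). MTR, methionine synthase, had a cluster II region at its start (tagcount 107) and 2 intronic cluster III regions (tagcount 29 and 7). MAT1A, MAT2B, MTRR and MTAP had none.

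Substrates were named at 10 of 17 genes (58.8%, 32.9 to 81.6, against 20.9% of all protein-coding names), all with a promoter-list region within 1 kb of a start, as near as a region of either list lay in 77.6% of named genes. HNRNPA1, an RNA-binding protein gene, had 4 regions (highest tagcount 49), among them a cluster II promoter-list region (tagcount 45). KHDRBS1, which encodes Sam68, had 2 (highest 44). Other cluster II regions lay at SERBP1 (tagcount 101), PABPC1 (62), NCOA3 (52) and NCL (40), and cluster III regions at PABPN1 (tagcount 38), CREBBP (28) and SMARCC1 (19). Of 9 reader genes SMN1 (tagcount 21) and SMN2 (tagcount 38) were named (22.2%, against 20.9% of all protein-coding names). These genes are near-identical copies, so reads may be split or swapped between them. Of the 6 genes for removal or citrullination of arginines (JMJD6 and the PADI genes) none was named. The interval of 0 to 45.9% held the 20.9% of all protein-coding names.

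**Figure D4:**
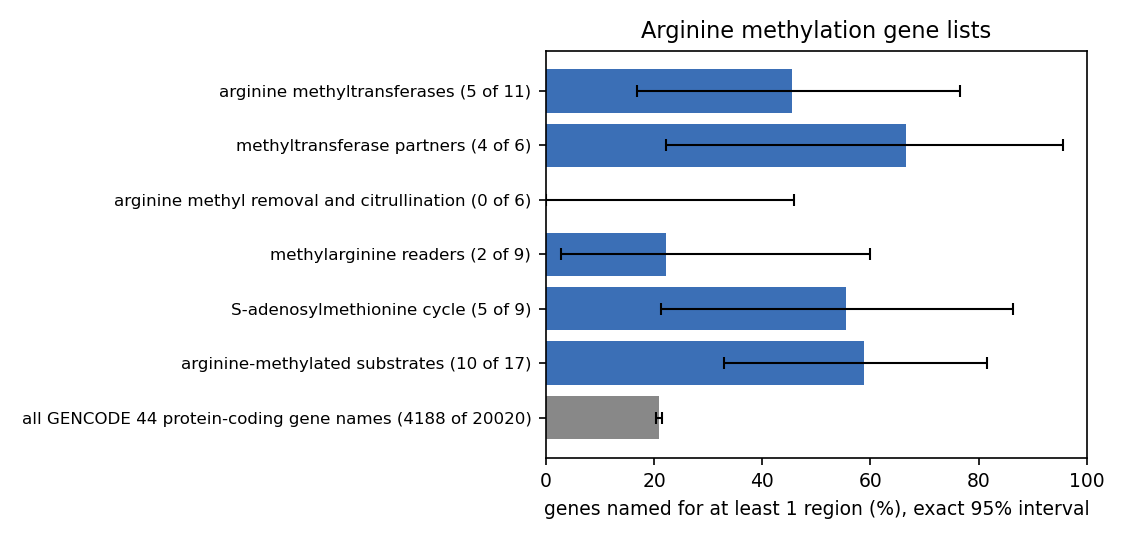
Share of genes named for at least 1 region (x axis, %) in each arginine methylation gene list and among all GENCODE 44 protein-coding gene names, with exact 95% intervals. Intervals of the short lists are wide, such as 16.7 to 76.6% around the 45.5% of the arginine methyltransferases. The lists were chosen with earlier results of these data known.

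Across the 47 genes, 20 of the 21 that were named had a promoter-list region, 4 had an enhancer-list region, 9 had a cluster II region and 14 a cluster III region. Of the 5 methyltransferase genes, 4 had a promoter-list region, 3 an enhancer-list region, 1 a cluster II region and 4 a cluster III region. Among all 4188 named protein-coding genes the shares were 73.5% with a promoter-list region, 33.3% with an enhancer-list region, 34.5% with a cluster II region and 69.2% with a cluster III region. These differences were not tested.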

How the data were processed

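The submitters' processing notes name bcl2fastq, Bowtie2, MACS 1.4, deepTools and build hg19 (GRCh37), without saying what each was used for. The authors deposited region lists with whole-number tag counts and no scaling. Position classes use start windows of 1250 bp and upstream windows of 5000 bp, per the file headers. No source used here gives the criteria for clusters and classes, the control used in calling, or how distances to starts were measured. Distances of regions to starts are the authors' listed values. For the PRMT6 pair, no single point of a region (start, end, middle or summit) gave the same start from these values. The running row number skips 16 numbers in the promoter list and 8 in the enhancer list, so both may be held only in part.

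The lists were joined on chromosome, start and stop with pandas 2.3.3, and all 8819 regions found 1 cluster. A percentile is the share of regions below a value plus 0.5 of the share equal to it. Intervals used scipy 1.17.1 and cover counting error only. The percentile and join steps were tested on simulated data. The genome at hand was GRCh38, so no region sequence was read. The genes and lists were chosen with earlier results of these data known. Named were all regions of the 5 genes, every listed gene with a region except 1 that is not reported here (of listed genes with several, mainly the region with the highest tagcount), the nearest neighbours on each side, and the 3 genes most like PRMT6 and CARM1. Alternatives covered the choice of regions, thresholds, scaling by width and the join.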

Additional observations from a re-analysis of the deposited data

How the results depend on the processing

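Of 15 alternative values 14 stayed within the interval of the main value or, for counts, within 1.5 times of it. The exception was the number of arginine methyltransferase genes with a region, which went from 5 to 3 when only regions within 1 kb of the named start counted, because the regions of PRMT8 and CARM1 lie farther away. The share of regions in cluster III was 75% over all 16 regions within 50 kb, whatever their name. The median percentile by tagcount was 26.02 within each list and 56.3 within each cluster. With 9 regions such intervals are wide and would hold most alternatives. No paired analysis was possible because each condition had 1 library.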

Other observations

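The genes with the same set of regions as PRMT6 (1 promoter-list and 1 enhancer-list region, both of cluster III) numbered 101. By Euclidean distance of log2(value + 1) over the highest tagcount and the highest MACS tags, the nearest were N6AMT1, a methyltransferase gene (0.12), PHGDH, a serine synthesis gene (0.14), and CAPN2, a protease gene (0.18). In these the enhancer-list region lay 62252, 15824 and 14871 bp from a start, against 510 bp in PRMT6. For CARM1, 344 genes shared its single cluster II enhancer-list region, and FAM222A, MBOAT7 and RP4-655J12.4, at a tagcount of 96, were nearest to its 97. Likeness over 2 columns, or 1 for CARM1, is a description of values only.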
